A study of Mus musculus with 16 samples.

Results

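The 10 genes described here encode the transcription factor Nrf2 (gene symbol Nfe2l2), its relatives Nfe2l1 and Nfe2l3, the ubiquitin ligase parts Keap1 and Cul3, the repressors Bach1 and Bach2, and the small Maf proteins Maff, Mafg and Mafk. They were chosen by symbol and role and not by a cut on a measured value, but with earlier results of these data known. The count tables listed 55367 gene symbols. All 10 genes were found there and passed edgeR's filter on low counts, as did 19509 genes in all.

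RNA-seq was performed in mIMCD3 cells, an epithelial line from the inner medullary collecting duct of the mouse kidney, to learn how Nrf2 activation changes the response to hyperosmotic stress. The libraries numbered 16, with 2 biological replicates in each of 8 conditions. Wild-type (WT) cells received the solvent DMSO or 10 µM sulforaphane (SFN), an activator of Nrf2, for 5 h, and were then sampled in isosmotic medium or after 1 h or 6 h in hyperosmotic medium of 600 mOsm. Nrf2-/- cells, made with lentiviral CRISPR/Cas9 and drug selection, received SFN and were sampled in isosmotic medium or after 1 h. In WT cells the same isosmotic libraries served as controls at 1 h and at 6 h. How long they stayed in isosmotic medium after pretreatment is not given in the sources used here. Effects of stress therefore cannot be told apart from those of time after pretreatment. The sources used here do not state whether the Nrf2-/- cells were a single clone or a pool, and Nrf2-/- cells given DMSO were not analysed here. Loss of Nrf2 therefore cannot be told apart from other differences between the 2 cell lines, and the effect of SFN was measured in WT cells only.

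Nrf2 is a transcription factor of the CNC family. In unstressed cells Keap1 binds Nrf2 and hands it to a ligase built on Cul3, so that Nrf2 is degraded, and electrophiles such as SFN react with Keap1 and let Nrf2 protein accumulate. Nrf2 then pairs with a small Maf protein on the antioxidant response element (ARE) of genes for glutathione synthesis, heme breakdown and quinone reduction. Bach1 and Bach2 pair with the same small Mafs and repress many of these genes, and small Maf pairs without a CNC or Bach partner lack an activation domain. Much of this control acts on protein stability, which RNA counts do not measure.

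Libraries held between 34484296 and 50774875 counts. The biological coefficient of variation between the 2 libraries of a condition lay between 0.0395 and 0.128 in 7 conditions and was 0.348 in Nrf2-/- SFN cells at 1 h. Because every comparison shared 1 estimate of the spread per gene, calls gained when this wide pair is left out are given beside the results. In a list of 12 markers of epithelium and collecting duct, 9 reached 1 CPM (count scaled to the library's total after TMM normalization) in every library, among them Krt8, Krt18 and Cdh1, whereas Aqp2, the water channel of principal cells, did not exceed 0.323 CPM. The Nrf2-/- line differed from WT in several of these genes. In SFN-treated isosmotic and 1 h libraries Pax2 was at 23.6 to 27.5 CPM in Nrf2-/- cells and 139 to 146 CPM in WT. Krt7 was at 833 to 1310 CPM against 158 to 312 CPM in the same libraries. In bulk RNA, a change in the level per cell and a change in the share of cells expressing a gene cannot be told apart.

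Promoter sequences are shown first, for the genes of the set whose promoter windows hold an ARE core, because these genes encode Nrf2 and its 3 small Maf partners. RefSeq (GRCm38.p6) promoter windows ran from 250 bases before the start site into the first 50 bases after it, and 16 windows covered the 10 genes. The ARE core TGACNNNGC was searched on both strands. It occurred in a window of Nfe2l2, Mafk, Mafg and Maff, that is in 4 of 10 genes, and in 14.0% of 27025 genes with a promoter window. The genes of the set had more windows each than that background, which had 32851 windows, 12.4% of them with the core. Capitals mark the matches, each sequence reads 5′ to 3′ on the strand of its gene, and a match on the other strand appears as its reverse complement (Mafk and Mafg).
Nfe2l2, chr2:75704870-75704913, minus strand: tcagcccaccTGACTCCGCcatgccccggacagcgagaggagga
Mafk, chr5:139791498-139791535, plus strand: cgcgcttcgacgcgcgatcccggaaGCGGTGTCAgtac
Mafg, chr11:120633736-120633794, minus strand: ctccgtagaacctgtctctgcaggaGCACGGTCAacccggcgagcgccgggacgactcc
Maff, chr15:79346484-79346542, plus strand: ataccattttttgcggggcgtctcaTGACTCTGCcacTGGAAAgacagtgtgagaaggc
Maff, second start site, chr15:79347466-79347519, plus strand: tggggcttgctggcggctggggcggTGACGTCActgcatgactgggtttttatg

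The match began 240 bases before the RefSeq start site in Nfe2l2, 222 bases before it in Mafg, 112 bases before it in Maff and 13 bases before it in Mafk. In the GENCODE M21 annotation Mafk starts earlier, at chr5:139791513, and there 23 bases of its printed window, the match among them, are exon. In Maff the second run of capitals, TGGAAA, is the core of the tonicity element bound by NFAT5, the main osmotic transcription factor, and it began 100 bases before the start. A further window of Maff held the same core, no other gene of the set did, and 23.9% of all genes had one. The cyclic AMP response element TGACGTCA, with 2.03% of genes as background, occurred in the set only at the second start site of Maff. The pattern TGANTCA, used here for the AP-1 site with any base allowed in the middle, was in 0 windows of the set and in 8.97% of genes. A match is a string of letters and shows neither binding nor use of the site.

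**Figure D1:**
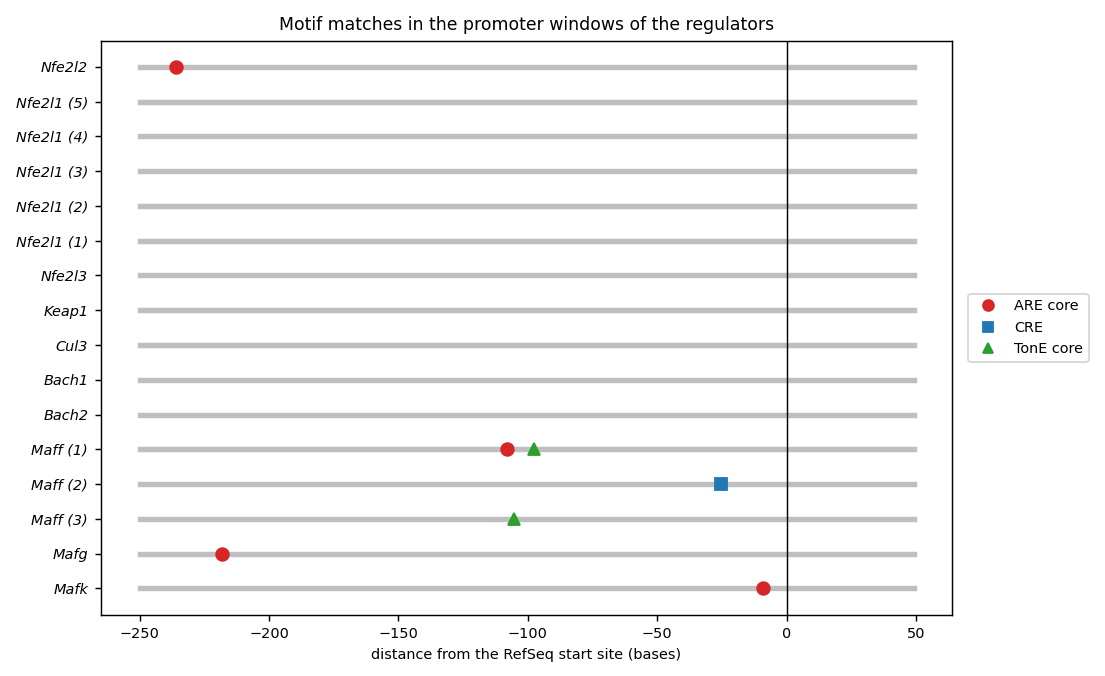
Motif matches in the 16 promoter windows of the 10 genes, by distance from the RefSeq start site in bases (horizontal axis). Grey bars are windows, numbers in parentheses tell apart the start sites of one gene, and symbols mark an ARE core, a cyclic AMP response element (CRE) or a tonicity element core (TonE). ARE cores are seen in Nfe2l2, Maff, Mafg and Mafk.

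The targeted gene was examined first. Nfe2l2 (chr2:75675513-75704641, minus strand, GENCODE M21 on GRCm38) had 66.9 and 78.0 CPM in WT SFN isosmotic libraries and 11.1 and 11.6 CPM in Nrf2-/- SFN isosmotic libraries. At 1 h the values were 76.6 and 73.4 CPM in WT and 11.0 and 11.1 CPM in Nrf2-/- cells. The Nrf2-/- libraries lay below every WT library, and their level was 15.7% of the WT mean in isosmotic medium and 14.8% at 1 h. Nrf2-/- libraries kept 386 to 433 counts, and because the tables hold 1 count per gene, the exons behind them cannot be read here. The log2 fold change was -2.67 (standard error 0.10, adjusted p = 1.14e-10, quasi-likelihood test of edgeR) in isosmotic medium and -2.76 (standard error 0.11, adjusted p = 9.01e-11) at 1 h.

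**Figure D2:**
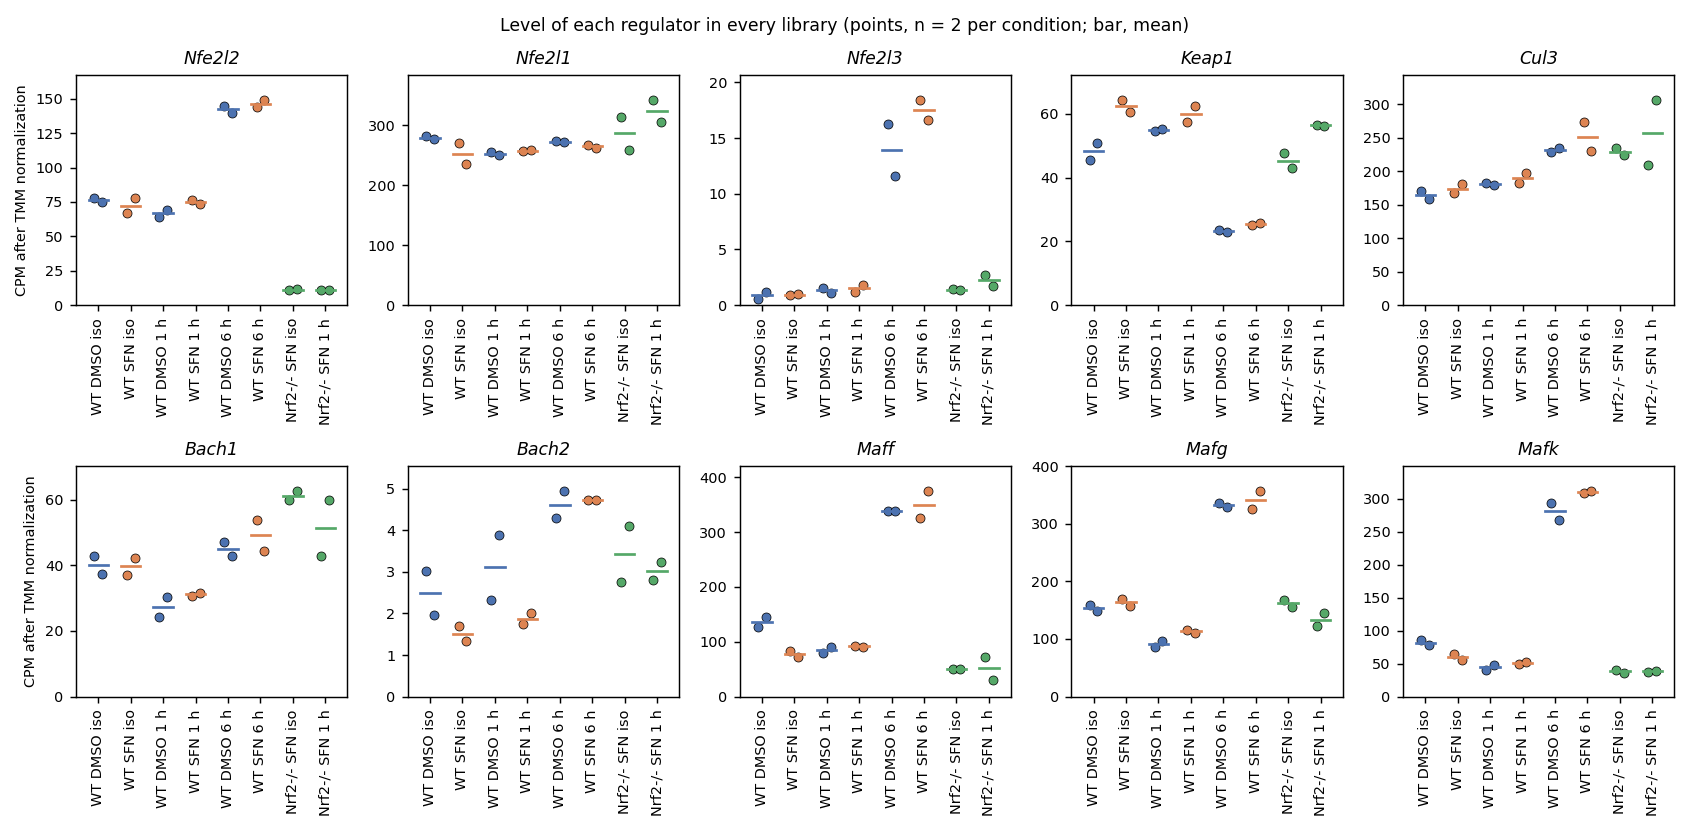
Level of each of the 10 genes in every library, in CPM after TMM normalization (vertical axis, from 0), by condition (horizontal axis; iso, isosmotic; 1 h and 6 h, hours of hyperosmotic stress). Points are libraries, 2 per condition, and short lines are means. Nfe2l2, Nfe2l3, Maff, Mafg and Mafk stand highest, and Keap1 lowest, in the 4 libraries at 6 h.

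Under hyperosmotic stress for 6 h, the mRNA of Nrf2 and of all 3 small Mafs rose in DMSO-treated WT cells, Nfe2l3 rose from a very low level, and Keap1 fell. Of the 10 genes, 7 rose and 1 fell, and 45.9% of all genes tested were called (23.9% higher and 22% lower). The question behind this comparison is how the cells respond to late stress without an Nrf2 activator. The median log2 fold change was 0.89 over the 10 genes and 0.05 over all genes tested.

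Nfe2l2 stood at 77.9 and 74.7 CPM in isosmotic libraries and at 145 and 140 CPM after 6 h. Both stressed libraries lay above both controls. The log2 fold change was 0.90 (standard error 0.10, 95% interval 0.70 to 1.11, adjusted p = 3.45e-06 by edgeR).

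Nfe2l1, a relative of Nrf2 that drives proteasome genes when proteasomes are blocked, had 282 and 277 CPM in isosmotic libraries and 274 and 272 CPM at 6 h. The stressed libraries were only slightly below the controls, with a log2 difference of -0.04 (95% interval -0.26 to 0.19, adjusted p = 0.821 by edgeR). Nfe2l3, a further CNC factor, had 25 and 54 counts (0.596 and 1.19 CPM) in isosmotic libraries. After 6 h it had 563 and 375 counts, or 16.3 and 11.6 CPM. The groups were far apart, and the log2 fold change was 3.95 (standard error 0.34, adjusted p = 4.66e-07), a 15.5-fold rise that started from few counts.

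Keap1, the adaptor that presents Nrf2 to its ligase, fell from 45.5 and 51 CPM to 23.6 and 23.1 CPM. Both stressed libraries were below both controls, and the log2 fold change was -1.05 (standard error 0.10, adjusted p = 1.45e-06 by edgeR). Cul3, the scaffold of that ligase and of many others, went the other way, from 171 and 159 CPM to 229 and 234 CPM (log2 fold change 0.49, standard error 0.14, adjusted p = 0.0117). The groups for Cul3 did not overlap, but its call was lost when WT DMSO isosmotic replicate 2 or WT DMSO 6 h replicate 2 was left out (adjusted p = 0.0904 and 0.0612 by edgeR).

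Bach1, which represses Hmox1 and is released by heme, had 42.7 and 37.3 CPM in isosmotic libraries and 47.1 and 42.9 CPM at 6 h. The groups were separated by little, and the difference of 0.17 (95% interval -0.17 to 0.51) did not pass the test (adjusted p = 0.414 by edgeR). Bach2, best known from B cells, was low at 3.03 and 1.97 CPM and reached 4.29 and 4.94 CPM at 6 h. Its log2 fold change was 0.89 (standard error 0.30, adjusted p = 0.0249), and the call was lost without WT DMSO isosmotic replicate 2 (adjusted p = 0.223) and without either 6 h library (adjusted p = 0.0569 and 0.128).

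The small Mafs are short bZIP proteins without an activation domain that serve as partners of CNC and Bach factors. Mafk (chr5:139791513-139802653, plus strand) rose most of the 3, from 85.8 and 77.8 CPM to 294 and 268 CPM (log2 fold change 1.78, standard error 0.12, adjusted p = 3.2e-08 by edgeR). Maff (chr15:79346621-79359076, plus strand) rose from 126 and 145 CPM to 338 CPM in both libraries (log2 fold change 1.32, standard error 0.27, adjusted p = 0.00162). Mafg (chr11:120625117-120633600, minus strand) rose from 159 and 148 CPM to 336 and 329 CPM (log2 fold change 1.12, standard error 0.11, adjusted p = 1.19e-06). For each small Maf both libraries at 6 h lay above both isosmotic libraries. The small Mafs and Nfe2l2 have an ARE core in the windows printed above. Nfe2l3, Cul3 and Bach2 were also called higher at 6 h and have no ARE core in their windows. The part of the ARE core in these values was not tested.

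Cells pretreated with SFN had a similar order of values at 6 h. Against SFN isosmotic cells, 7 of the 10 genes rose and 1 fell, where 47.6% of all genes tested were called (24.7% higher and 22.9% lower). Nfe2l2 went from 66.9 and 78.0 CPM to 144 and 149 CPM (log2 fold change 1.02, standard error 0.10, adjusted p = 1.01e-06 by edgeR). Keap1 went from 64.3 and 60.5 CPM to 25 and 25.9 CPM (log2 fold change -1.30, standard error 0.10, adjusted p = 1.68e-07). Thus the ligase adaptor was below its control in both arms, and the groups did not overlap in either.

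Mafk rose from 63.8 and 56.0 CPM to 308 and 311 CPM after 6 h in SFN-treated cells (log2 fold change 2.37, standard error 0.12, adjusted p = 2e-09 by edgeR). Maff rose from 83.2 and 71.5 CPM to 325 and 374 CPM (log2 fold change 2.18, standard error 0.28, adjusted p = 4.1e-05). Mafg rose from 170 and 157 CPM to 326 and 356 CPM (log2 fold change 1.06, adjusted p = 1.81e-06). At 6 h the SFN values of Maff and Mafg overlapped with those of the DMSO arm, and in each small Maf both stressed libraries lay above both controls. Nfe2l3 rose from 0.885 and 0.982 CPM to 18.4 and 16.6 CPM (log2 fold change 4.22, adjusted p = 2.09e-07), Bach2 from 1.69 and 1.33 CPM to 4.73 CPM in both libraries (1.65, adjusted p = 0.00051) and Cul3 from 167 and 181 CPM to 273 and 230 CPM (0.53, adjusted p = 0.00652). The Cul3 call was lost on leaving out a library, with adjusted p = 0.0623 without WT SFN isosmotic replicate 1 and 0.0888 without WT SFN 6 h replicate 1. Bach1 had 37.1 and 42.2 CPM in SFN isosmotic libraries and 53.9 and 44.5 CPM at 6 h, which did not pass the test, and with both Nrf2-/- 1 h libraries left out it was called higher (0.28, adjusted p = 0.0301 by edgeR). Nfe2l1 differed by 0.07 and did not pass the test.

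Markers of other cell types also moved at 6 h. In the list of 19 markers for intercalated, proximal tubule, thick limb, fibroblast, endothelial and leukocyte cells, 8 of the 11 genes tested were higher at 6 h in DMSO-treated cells. Of all genes tested, 23.9% were higher and 22% lower. The summed level of the list was 17.4 and 15.2 CPM in isosmotic libraries and 48.5 and 40.4 CPM at 6 h, and Umod, which defines the thick limb, had 0 counts in all WT libraries. The list of epithelial and collecting duct markers summed to 2970 and 3340 CPM and to 4090 and 4130 CPM. In that list 5 of the 11 genes tested were higher and 2 lower. Its sum rose with Pax2, which went from a mean of 119 to 1140 CPM. Krt8 went from 1050 to 801 CPM and Krt7 from 356 to 252 CPM. The part of these markers in the results at 6 h was not tested.

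**Figure D3:**
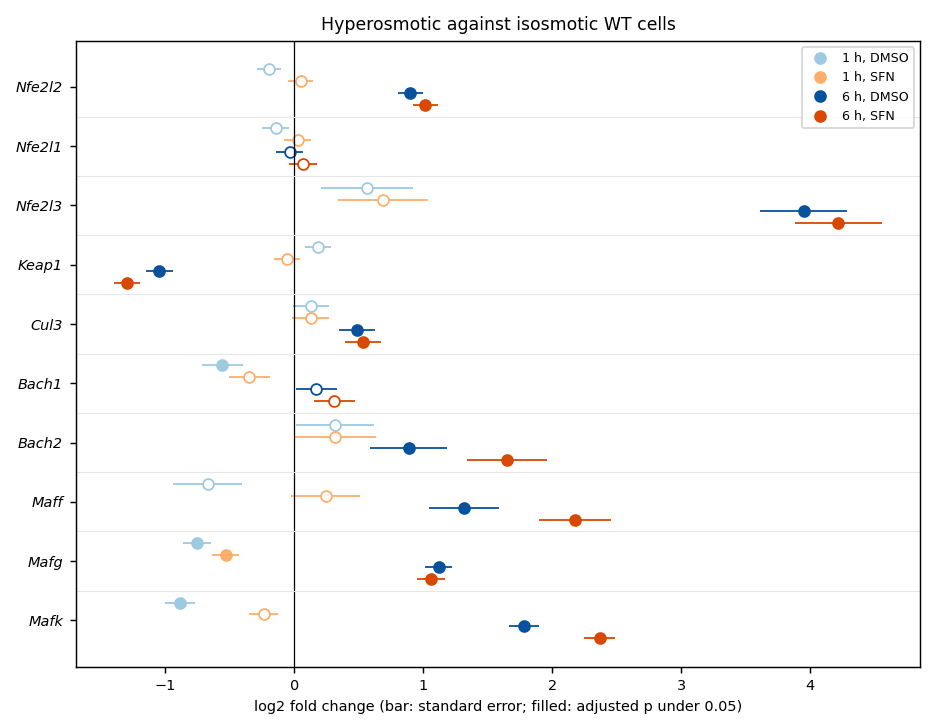
Log2 fold change of hyperosmotic against isosmotic WT cells for the 10 genes (horizontal axis), after 1 h (light) and 6 h (dark), in DMSO (blue) and SFN (orange) arms. Points are edgeR estimates from 2 libraries per condition, bars are standard errors, and filled points have an adjusted p under 0.05. The 1 h points lie within 1 log2 unit of 0, and the 6 h points of Nfe2l3 lie near 4.

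One hour of stress gave a different picture. In DMSO-treated WT cells 3 of the 10 genes fell, Mafk, Mafg and Bach1, and 0 rose, where 11.2% of all genes tested were called (7.1% higher and 4.11% lower). Mafk went from 85.8 and 77.8 CPM to 40.4 and 48.2 CPM (log2 fold change -0.89, standard error 0.12, adjusted p = 0.000178 by edgeR). Mafg went from 159 and 148 CPM to 85.4 and 96.1 CPM (log2 fold change -0.75, standard error 0.11, adjusted p = 0.000347). Both partners of Nrf2 were thus lower at 1 h than in isosmotic cells in every library, and higher than in isosmotic cells at 6 h.

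Maff, the third partner, had 80.0 and 90.1 CPM at 1 h against 126 and 145 CPM. Its groups did not overlap, but the log2 difference of -0.67 (standard error 0.27) did not pass the test (adjusted p = 0.146 by edgeR). With both Nrf2-/- 1 h libraries left out of the fit, whose Maff values of 72.5 and 30.4 CPM were far apart, the difference was -0.68 and the adjusted p was 2.87e-06. Bach1 had 24.2 and 30.2 CPM against 42.7 and 37.3 CPM (log2 fold change -0.56, standard error 0.16, adjusted p = 0.0363). The Bach1 call was lost without WT DMSO isosmotic replicate 1 (adjusted p = 0.203), without replicate 2 (0.0792) and without WT DMSO 1 h replicate 1 (0.319). Nfe2l2 itself had 64.0 and 69.3 CPM at 1 h, below its controls by -0.20 on the log2 scale (95% interval -0.40 to 0.01, adjusted p = 0.235). The other members did not pass the test, with log2 differences of -0.14 for Nfe2l1, 0.19 for Keap1, 0.13 for Cul3, 0.32 for Bach2 and 0.56 for Nfe2l3.

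In SFN-treated WT cells at 1 h, Mafg alone was called among the 10 genes, where 9.52% of all genes tested were called (5.94% higher and 3.58% lower). It fell from 170 and 157 CPM to 115 and 111 CPM (log2 fold change -0.53, standard error 0.11, adjusted p = 0.0053 by edgeR). The call was lost without WT SFN isosmotic replicate 1 (adjusted p = 0.0549) and without WT SFN 1 h replicate 2 (0.0633). Bach1 had 30.7 and 31.6 CPM against 37.1 and 42.2 CPM (difference -0.35, adjusted p = 0.218), and with both Nrf2-/- 1 h libraries left out it was called lower (adjusted p = 0.0272). Mafk had 49.4 and 52.2 CPM against 63.8 and 56.0 CPM (difference -0.24, adjusted p = 0.247), and Maff had 93.0 and 89.9 CPM against 83.2 and 71.5 CPM (0.24, adjusted p = 0.709). The other members did not pass the test, with log2 differences of 0.05 for Nfe2l2, 0.03 for Nfe2l1, -0.06 for Keap1, 0.13 for Cul3, 0.32 for Bach2 and 0.69 for Nfe2l3.

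From 1 h to 6 h of stress in DMSO-treated cells, 6 of the 10 genes rose and 1 fell, where 42.4% of all genes tested were called (20.4% higher and 22% lower). Both stress comparisons with DMSO share their isosmotic libraries, whereas this one sets the 2 times against each other. Mafk rose 6.35-fold (log2 fold change 2.67, standard error 0.12, adjusted p = 8.17e-10 by edgeR), Maff 3.97-fold (1.99, adjusted p = 8.6e-05) and Mafg 3.67-fold (1.87, adjusted p = 9.52e-09). Nfe2l2 rose 2.14-fold (1.10, adjusted p = 5.43e-07), Nfe2l3 rose 10.5-fold (3.39, adjusted p = 1.27e-06) and Bach1 rose 1.66-fold (0.73, adjusted p = 0.00196). Keap1 fell from 54.5 and 55.2 CPM at 1 h to 23.6 and 23.1 CPM (log2 fold change -1.23, adjusted p = 3.04e-07). Bach1 was thus lower at 1 h than at 6 h, although its 6 h level did not pass the test against isosmotic cells. Cul3 had 183 and 179 CPM at 1 h and 229 and 234 CPM at 6 h, which did not pass the test, and with both Nrf2-/- 1 h libraries left out it was called higher (0.33, adjusted p = 0.000734). Nfe2l1 and Bach2 did not pass it either, with differences of 0.11 and 0.57.

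SFN activates Nrf2 protein, and the comparison with DMSO asks whether its regulators change at the RNA level before stress. In isosmotic WT cells Mafk was the 1 gene of the 10 called, where 2.84% of all genes tested were called (1.09% higher and 1.76% lower). Mafk fell from 85.8 and 77.8 CPM to 63.8 and 56.0 CPM (log2 fold change -0.45, standard error 0.11, adjusted p = 0.0494 by edgeR), a call lost when any of the 4 libraries compared was left out (adjusted p = 0.0977 to 0.448) and with the replicate block. Nfe2l2 was 77.9 and 74.7 CPM with DMSO and 66.9 and 78.0 CPM with SFN. These values overlapped, and the 95% interval of the log2 difference ran from -0.28 to 0.13. Epithelial markers moved in the same comparison, with 6 of the 11 tested lower and 0 higher, among them Cldn4 (-2.13), Krt7 (-0.98) and Cdh1 (-0.66). Their list summed to 2970 and 3340 CPM with DMSO and 2130 and 1940 CPM with SFN, 0 of 11 markers of other cell types were called, and the part of the epithelial markers in the values of Mafk, Maff and Keap1 was not tested.

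Maff and Keap1 gave values that did not overlap between SFN and DMSO in isosmotic cells without passing the test. Maff was 126 and 145 CPM with DMSO and 83.2 and 71.5 CPM with SFN (difference -0.81, standard error 0.27, adjusted p = 0.158 by edgeR). Keap1 was 45.5 and 51 CPM with DMSO and 64.3 and 60.5 CPM with SFN (difference 0.37, standard error 0.10, adjusted p = 0.0635). With both Nrf2-/- 1 h libraries left out, Maff was called lower (-0.81, adjusted p = 2.74e-07) and Keap1 higher (0.37, adjusted p = 0.00529). Mafg, with 159 and 148 CPM against 170 and 157 CPM, overlapped between DMSO and SFN. Bach2 was 3.03 and 1.97 CPM against 1.69 and 1.33 CPM (difference -0.73, adjusted p = 0.275), and Nfe2l1, Nfe2l3, Cul3 and Bach1 differed by -0.14, 0.06, 0.07 and -0.01.

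Under stress, SFN changed 0 of the 10 genes at 1 h by edgeR, where 0.0923% of all genes tested were called and 669 of 19509 genes had an unadjusted p under 0.05. At 6 h it also changed 0 of the 10, where 0.041% of all genes were called and 718 genes had an unadjusted p under 0.05. DESeq2 called 0 of the 10 at both times. Mafg had the smallest p of the 10 at 1 h, with 85.4 and 96.1 CPM with DMSO and 115 and 111 CPM with SFN. Its groups did not overlap, the log2 difference was 0.32 (95% interval 0.09 to 0.54, unadjusted p = 0.00947 by edgeR), and it was called when the fit held only the 4 libraries compared (adjusted p = 4.47e-05). For Nfe2l2 the log2 difference between SFN and DMSO was 0.17 at 1 h (95% interval -0.03 to 0.38) and 0.04 at 6 h (-0.16 to 0.25). For Keap1 it was 0.13 at 1 h and 0.12 at 6 h (95% interval -0.10 to 0.34 at 6 h). Bach2, at 2.33 and 3.89 CPM with DMSO and 1.75 and 2 CPM with SFN at 1 h, differed by -0.73, and at 6 h by 0.04. The other members differed by 0.03 (Nfe2l1) to 0.20 (Mafk and Bach1) at 1 h, and at 6 h the members other than Nfe2l2, Keap1 and Bach2 differed by -0.04 (Nfe2l1) to 0.33 (Nfe2l3).

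Known targets of Nrf2 were read in the same libraries. Of 12 target genes, 8 were higher with SFN in isosmotic WT cells, 8 at 1 h and 3 at 6 h, and 0 were lower at any time. Of all genes tested, 1.09% were higher with SFN in isosmotic cells, 0.0923% at 1 h and 0.041% at 6 h. Hmox1, which breaks down heme, went from 77.8 ± 9.08 to 318 ± 13.5 CPM (mean ± SD, n = 2 libraries) in isosmotic cells, a log2 fold change of 2.03 (adjusted p = 0.000311 by edgeR). Slc7a11, the cystine transporter that supplies glutathione synthesis, rose by 2.39 on the same scale (adjusted p = 0.00012). These targets were also read under stress, against isosmotic cells. Stress for 6 h with DMSO left 2 of the 12 higher and 4 lower, where 45.9% of all genes tested were called. With SFN 1 was higher and 7 lower at 6 h, where 47.6% were called. The median log2 fold change of the targets at 6 h was -0.10 with DMSO and -0.64 with SFN. At 1 h 0 were higher and 4 lower with DMSO, and 0 higher and 1 lower with SFN (11.2% and 9.52% of all genes called). The difference between the regulators and these targets in their response to SFN was not tested.

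**Figure D4:**
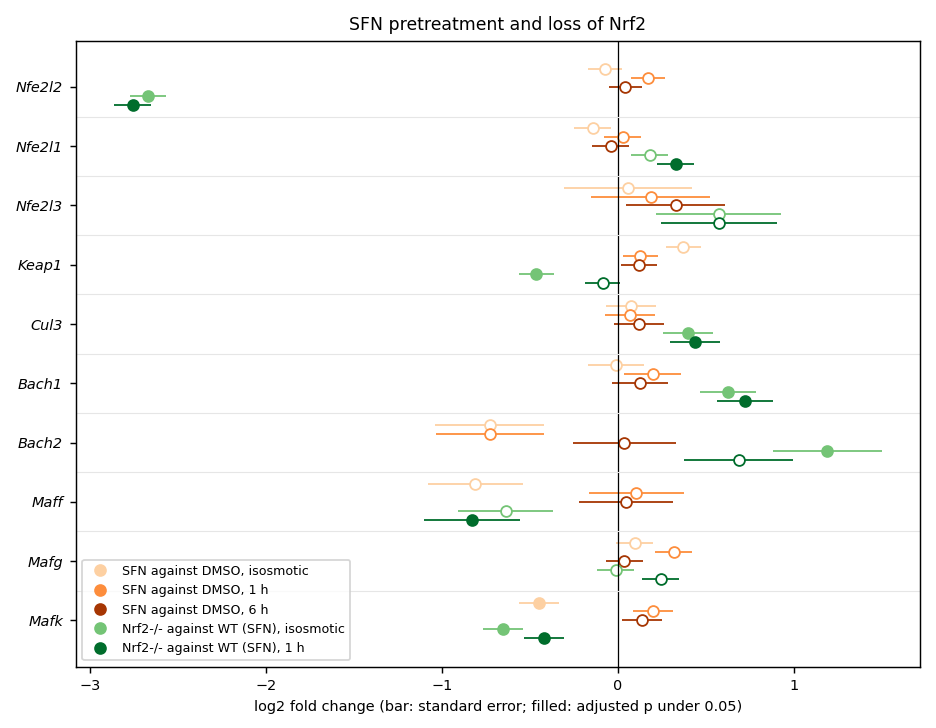
Log2 fold change of the 10 genes with SFN against DMSO in WT cells (orange, at 3 times) and in Nrf2-/- against WT cells, both with SFN (green, at 2 times). Points are edgeR estimates from 2 libraries per condition, bars are standard errors, and filled points have an adjusted p under 0.05. Nfe2l2 lies beyond -2.5 in Nrf2-/- cells, and most SFN points lie within 0.5 of 0.

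In Nrf2-/- cells given SFN, the repressor Bach1 was higher than in WT cells, and Mafk was lower, at both times. The scaffold Cul3 was also called higher at both times, but at each time its call was lost on leaving out single libraries. In isosmotic medium 3 of the 10 genes were higher and 3 lower, Nfe2l2 among them, where 34.1% of all genes tested were called (15.7% higher and 18.4% lower). Bach1 had 37.1 and 42.2 CPM in WT and 59.8 and 62.5 CPM in Nrf2-/- cells (log2 fold change 0.62, standard error 0.16, adjusted p = 0.00685 by edgeR). Its groups did not overlap, and the call was lost without WT SFN isosmotic replicate 1 (adjusted p = 0.078). Mafk had 63.8 and 56.0 CPM in WT and 40.9 and 35.2 CPM in Nrf2-/- cells (log2 fold change -0.65, standard error 0.12, adjusted p = 0.000447), and it stayed called under each of the 11 alternatives.

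Keap1 was 64.3 and 60.5 CPM in WT and 47.6 and 42.9 CPM in Nrf2-/- cells in isosmotic medium (log2 fold change -0.46, standard error 0.10, adjusted p = 0.0021 by edgeR). The Nrf2-/- values overlapped with those of WT cells given DMSO, 45.5 and 51 CPM. Bach2 rose from 1.69 and 1.33 CPM to 2.76 and 4.11 CPM (log2 fold change 1.19, adjusted p = 0.00789), and this call was lost without WT SFN isosmotic replicate 2 (adjusted p = 0.0781) or Nrf2-/- isosmotic replicate 2 (0.108). Cul3 was 167 and 181 CPM against 234 and 224 CPM (log2 fold change 0.40, adjusted p = 0.0422), a call lost when any of the 4 libraries was left out (adjusted p = 0.0829 to 0.225). Mafg, by contrast, had 170 and 157 CPM in WT and 168 and 155 CPM in Nrf2-/- cells, with an interval of the log2 difference from -0.24 to 0.21.

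Maff was 83.2 and 71.5 CPM in WT and 50.1 and 49.3 CPM in Nrf2-/- cells in isosmotic medium. The groups did not overlap, and the difference of -0.64 did not pass the test (adjusted p = 0.0904 by edgeR). With both Nrf2-/- 1 h libraries left out it was -0.62 with an adjusted p of 2.44e-06. Nfe2l1 and Nfe2l3 did not pass the test, with 314 and 259 CPM against 270 and 236 CPM and with 1.45 and 1.34 CPM against 0.885 and 0.982 CPM. Without the same pair Nfe2l1 was called higher (0.20, adjusted p = 0.0399). Of 11 epithelial markers tested, 5 were higher and 1 lower in Nrf2-/- cells in isosmotic medium, where 34.1% of all genes tested were called. Their list summed to 3360 and 3160 CPM against 2130 and 1940 CPM in WT, and their part in these results was not tested.

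After 1 h of stress 3 genes were higher in Nrf2-/- than in WT cells and 3 were lower, where 31.5% of all genes tested were called (15.3% higher and 16.2% lower). Bach1 was 30.7 and 31.6 CPM in WT and 42.7 and 60.0 CPM in Nrf2-/- cells (log2 fold change 0.72, standard error 0.16, adjusted p = 0.00308 by edgeR). Cul3 was 183 and 197 CPM against 209 and 306 CPM (0.44, adjusted p = 0.0295), and Nfe2l1 was 257 and 259 CPM against 342 and 306 CPM (0.33, adjusted p = 0.0273). Mafk was 49.4 and 52.2 CPM against 36.9 and 39.0 CPM (-0.42, adjusted p = 0.0118), and Maff was 93.0 and 89.9 CPM against 72.5 and 30.4 CPM (-0.83, adjusted p = 0.0345). In each of these genes the WT and Nrf2-/- libraries did not overlap, but the 2 Nrf2-/- libraries lay far apart for Bach1, Cul3 and Maff. Nfe2l3, Keap1, Bach2 and Mafg did not pass the test, with differences of 0.57, -0.09, 0.69 and 0.24.

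These 1 h calls depended on the libraries and on the fit. Those of Cul3, Nfe2l1 and Maff were lost on leaving out WT SFN 1 h replicate 1 or replicate 2, and that of Mafk on leaving out replicate 2. Nfe2l2 alone was called when the fit held only the 4 libraries compared, 3 of the 10 genes were called without WT SFN 1 h replicate 1 and 2 without its replicate 2. Without Nrf2-/- 1 h replicate 2, Cul3 had a log2 difference of 0.14 (adjusted p = 0.322 by edgeR) in place of 0.44. Maff kept its direction but moved from -0.83 to -1.58 without Nrf2-/- 1 h replicate 1 and to -0.34 without replicate 2, and its call was lost without WT SFN 1 h replicate 1 (adjusted p = 0.135) or replicate 2 (0.113).

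Stress for 1 h within Nrf2-/- cells changed 0 of the 10 genes by edgeR, where 7.17% of all genes tested were called (4.36% higher and 2.81% lower) and 3987 genes had an unadjusted p under 0.05, and DESeq2 called 1, Keap1. The count changed when either library of the wide pair was left out. Without Nrf2-/- 1 h replicate 1, 3 genes were called and Maff was lower than in isosmotic Nrf2-/- cells (-0.72, adjusted p = 3.36e-05). Without replicate 2, 5 genes were called and Maff was higher (0.55, adjusted p = 0.000506), so no direction can be given for Maff. Keap1, with 47.6 and 42.9 CPM in isosmotic medium and 56.6 and 56.3 CPM at 1 h, did not overlap between times (difference 0.32, adjusted p = 0.0693) and was called higher without either 1 h library (0.31, adjusted p = 0.0366, and 0.33, adjusted p = 0.0287). With all libraries the estimates of the 10 genes ran from -0.28 (Mafg) to 0.69 (Nfe2l3).

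Whether SFN altered the response to stress was tested as an interaction. By edgeR, 0 of the 10 genes were called for SFN by 1 h of stress (0.559% of all genes, 0.487% higher and 0.0718% lower, with 1487 at an unadjusted p under 0.05) and 0 for SFN by 6 h (0.759%, 0.595% higher and 0.164% lower, with 1721). DESeq2 called Mafk for 1 h and 0 genes for 6 h. The largest estimate at each time was that of Maff, 0.92 at 1 h and 0.86 at 6 h (standard error 0.38 for both, adjusted p = 0.594 and 0.541). Mafk had 0.65 and 0.59 (standard error 0.16, adjusted p = 0.13 and 0.153), Bach2 had 0.77 at 6 h (adjusted p = 0.666), and the other estimates lay between those of Keap1 (-0.24 at 1 h and -0.25 at 6 h) and 0.27 (Nfe2l3 at 6 h). With both Nrf2-/- 1 h libraries left out, Maff was called at 1 h and 6 h (adjusted p = 2.26e-05 and 4.6e-05), as was Mafk (0.00297 and 0.00508). Both interactions share the isosmotic libraries, in which Maff and Mafk had lower values with SFN than with DMSO. Under stress the SFN and DMSO values of Maff overlapped at 1 h and at 6 h. For Mafk the SFN libraries lay above the DMSO libraries at both times without a call. They had 49.4 and 52.2 against 40.4 and 48.2 CPM at 1 h, and 308 and 311 against 294 and 268 CPM at 6 h. The interaction of genotype with 1 h of stress gave 0 called genes of the 10 by edgeR (0.123% of all genes, 0.0615% higher and 0.0615% lower, with 1433 at an unadjusted p under 0.05) and 0 by DESeq2, with estimates from -0.51 (Bach2) to 0.38 (Keap1). Without Nrf2-/- 1 h replicate 1 it gave 2, Maff (-0.95, adjusted p = 7.24e-05) and Mafg (0.37, adjusted p = 0.0434). Without replicate 2 the Maff estimate had the opposite sign, 0.30, and was not called, so no direction can be given for it.

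Levels can be compared between genes only per length, so CPM were divided by the kb of exon of each gene in GENCODE M21. In isosmotic DMSO cells Maff had the highest mean level of the set, 52.2 CPM per kb, near that of Nfe2l1. Mafg (27.3 CPM per kb), Mafk (21.0) and Nfe2l2 (20.1) followed below Cul3, and Keap1 (10.3), Bach1 (6.48), Nfe2l3 (0.301) and Bach2 were lower. At 6 h with DMSO, Maff (130 CPM per kb), Mafk (72) and Mafg (59.2) all stood above Nfe2l2 (37.5), and Keap1 was at 4.98. In Nrf2-/- isosmotic cells Mafg, at 28.8 CPM per kb, stood above Maff (19.1) and Mafk (9.76).

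Ratios within a library need no normalization between libraries. The ratio of Nfe2l2 to Keap1 per kb of exon was 2.12 and 1.81 in isosmotic DMSO libraries, 1.45 and 1.55 at 1 h, and 7.60 and 7.47 at 6 h. With SFN it was 1.29 and 1.59 in isosmotic medium, 1.65 and 1.45 at 1 h, and 7.15 and 7.12 at 6 h. The 4 libraries at 6 h stood above all other WT libraries, and the SFN libraries lay below the DMSO libraries in isosmotic medium and at 6 h and overlapped with them at 1 h.

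The ratio of the 3 small Mafs together to Bach1 was 14.3 and 16.9 in isosmotic DMSO libraries and 34.8 and 37.1 at 6 h. In Nrf2-/- isosmotic libraries it was 6.18 and 5.50, below the 13.1 and 10.2 of WT cells with SFN. Mafk over Mafg was 0.779 and 0.758 in isosmotic DMSO cells, 0.541 and 0.513 with SFN, 1.26 and 1.17 at 6 h with DMSO, and 0.350 and 0.326 in Nrf2-/- isosmotic cells. Mafk was thus the more abundant of these 2 partners per kb only in the 4 libraries at 6 h, and Mafg made up 50.2% and 49.7% of small Maf RNA in Nrf2-/- isosmotic cells against 38.4% and 40.1% in WT cells with SFN.

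**Figure D5:**
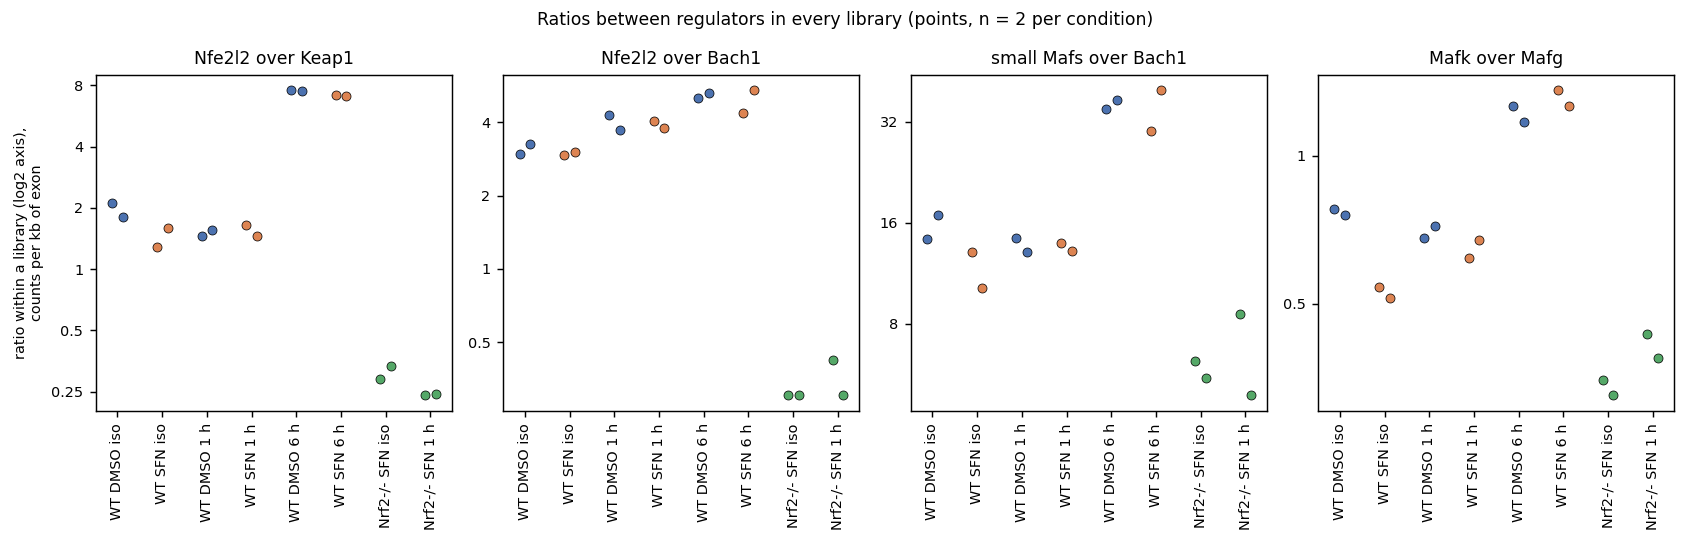
Ratios of levels per kb of exon within each library (vertical axis, log2 scale) by condition (horizontal axis), for Nfe2l2 over Keap1, Nfe2l2 over Bach1, the 3 small Mafs together over Bach1 and Mafk over Mafg. Points are libraries, 2 per condition. All 4 ratios are lowest in Nrf2-/- libraries, and Nfe2l2 over Keap1 lies between 7.12 and 7.60 in the libraries at 6 h.

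Exons of several of these genes overlap others in GENCODE M21, and whether strand was used in counting is not stated. Keap1 shares 510 bases, 10.87% of its exon bases, with the antisense gene Gm16754, which had 6 to 101 counts in a library. Mafk shares 169 bases with Tmem184a on the opposite strand, which had 307 to 874 counts, and Mafg shares 124 bases with Sirt7 on the same strand, which had 753 to 2337 counts. Bach2 shares 537 bases with Bach2os, which had 0 to 3 counts. Reads in these stretches cannot be told apart.

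Other genes that control Nrf2 protein were read from a list. Of 15 genes of Nrf2 and CNC turnover, 2 were higher and 6 lower at 6 h in DMSO-treated cells, where 45.9% of all genes tested were called, so the number called in this list is near the background. Btrc, the F-box protein of a second ligase that degrades Nrf2 without Keap1, fell from 37.0 to 10.3 CPM (log2 fold change -1.84, adjusted p = 7.92e-07 by edgeR). Palb2, which can bind Keap1, fell by 0.77 (adjusted p = 0.00403), Fbxl17, a factor that controls the quality of BTB proteins, fell by 0.72 (adjusted p = 0.00439) and Usp15, a deubiquitinase of Keap1, rose by 0.64 (adjusted p = 0.000335). With SFN, 2 were higher and 5 lower at 6 h, where 47.6% of all genes tested were called, and Btrc fell by 1.95 (adjusted p = 4.45e-07 by edgeR). SFN itself changed 0 of the 15 in each state, and 1 h of stress changed 0 of the 15 in either arm, by edgeR in each case.

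In Nrf2-/- cells 5 of these 15 genes were higher and 1 lower at both times, near the 34.1% of all genes called in isosmotic medium and 31.5% at 1 h. Amer1, which can bind Keap1, had the largest difference, 46.3 against 12.7 CPM in isosmotic medium (log2 fold change 1.87, adjusted p = 2.03e-06 by edgeR). Gsk3b, the kinase that marks Nrf2 for Btrc, was higher by 0.98 (adjusted p = 0.00519), and Rbx1, the RING subunit of cullin ligases, was lower, with a log2 fold change of -0.61 (adjusted p = 0.0229).

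Of 5 genes that process Nfe2l1, 2 were higher and 1 lower at 6 h with DMSO, where 45.9% of all genes tested were called. Ngly1, which removes sugars from Nfe2l1, fell by 1.17 (adjusted p = 0.000194 by edgeR), Fbxw7, an F-box protein, rose by 0.74 (adjusted p = 7.17e-05) and Ddi2, the protease that cuts Nfe2l1 into its active form, rose by 0.31 (adjusted p = 0.0224). Ddi2 was also the 1 gene of this list higher with SFN in isosmotic cells (0.43, adjusted p = 0.0403 by edgeR), where 1.09% of all genes tested were higher. Of 7 coactivators and corepressors, 2 were higher and 3 lower at 6 h with DMSO, where the same 45.9% of all genes were called. The acetyltransferases Crebbp and Ep300 rose by 1.16 and 1.21 (adjusted p = 2.21e-06 and 0.000122), and Rxra, a nuclear receptor that can bind and restrain Nrf2, fell by 1.27 (adjusted p = 1.64e-06).

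The large Maf genes, which have the activation domain that small Mafs lack, were nearly silent outside the 6 h libraries. Of 5 genes in the list of other CNC and large Maf factors, 4 passed the filter on low counts and 2 were higher at 6 h with DMSO. Of all genes tested, 23.9% were higher there. Maf had 6 and 4 counts in isosmotic DMSO libraries and 234 and 181 counts at 6 h. It had 0 counts in all 4 Nrf2-/- libraries, which were isosmotic or taken at 1 h. The WT SFN libraries of those states had 6 and 18 counts in isosmotic medium and 8 and 3 at 1 h. Nrf2-/- cells were not sampled at 6 h. Mafa had 16 and 6 counts in isosmotic DMSO libraries and 232 and 274 counts at 6 h (adjusted p = 2.87e-05 by edgeR), and p was 4.12e-05 for Maf. Counts this low in the control group make the size of the change uncertain.

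In Nrf2-/- cells 9 of the 12 target genes were lower and 1, Slc7a11, was higher than in WT cells at both times. Of all genes tested, 18.4% were lower and 15.7% higher in isosmotic medium, and 16.2% lower and 15.3% higher at 1 h. Srxn1, which repairs peroxiredoxins, was 206 ± 8.55 CPM in WT and 21.7 ± 0.485 CPM in Nrf2-/- cells in isosmotic medium (n = 2, log2 fold change -3.25, adjusted p = 7.21e-12 by edgeR). Nqo1, a quinone reductase, had 268 and 398 counts in WT isosmotic libraries with SFN and 0 in both Nrf2-/- libraries.

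The genes whose level across libraries was most like that of each regulator were found by Pearson's r of log2 CPM over 12290 genes. Libraries share conditions, so these values describe the pattern of 8 conditions, or 6 in WT, and are given without a test. Over the 12 WT libraries Mafk was most like Fosl2 (r = 0.998), Fzd5 and Irf2bpl (both 0.997), and Maff was most like Csrnp1 (0.996), Bcar1 (0.995) and Cnbp (0.993). Klf9 and Plcxd2 were among the genes most like Nfe2l2 (both 0.993), Keap1 was most like Rnpepl1 (0.996), Gys1 and Pif1, and Mafg was most like Xkr6 (0.992), Lmbr1l and Wdr48 (both 0.991). Over all 16 libraries the leading gene was Adamts9 for Nfe2l2 (0.997), Per1 for Mafk (0.991), Cdk9 for Maff (0.991), Brd3os for Keap1 (0.982) and Phf13 for Mafg (0.982). For Nfe2l3 the leading gene over WT libraries was Tent5c (0.992), for Cul3 Rab10 (0.989), for Bach1 Gm42664 (0.977), for Nfe2l1 Taf15 (0.958) and for Bach2 Hs6st1 (0.944).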

How the data were processed

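The authors aligned reads to the mouse genome mm10, used SAMtools, and counted with featureCounts how many reads fell on each gene symbol. The study's text names Hisat2 as the aligner and the submitters' processing notes list Bowtie2, and versions, annotation and strand setting are not given in the sources used here. The deposited values are raw counts of single libraries without normalization. Unnamed lines were dropped from 1 WT DMSO isosmotic library (2 lines) and from 1 Nrf2-/- isosmotic library (3 lines). One label calls the RNA source primary cells and all others name mIMCD3, which was used. Samples were grouped by their labels. Counts from 1 to 10 were even in 58.0% to 68.5% of genes, so a count may not be an independent fragment.

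Counts were analysed in R 4.3.3 with edgeR 4.0.16 (filter on low counts, TMM, robust quasi-likelihood F-test, 1 coefficient per condition over 16 libraries, Benjamini-Hochberg adjusted p under 0.05 over 19509 genes). With 2 libraries a side, the smallest two-sided exact permutation p of a single value is 0.333. The alternatives were DESeq2 1.42.0, RLE size factors, the replicate number as a block, no filter, a filter of 10 counts in each library, only the libraries compared, only the 12 WT libraries, both Nrf2-/- 1 h libraries left out, and each library left out in turn. Scripts were tested on simulated data. Positions and exon lengths came from GENCODE M21 on GRCm38, and promoters from RefSeq GRCm38.p6.

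The 10 genes and the other lists were chosen with earlier results of these data known. All 10 genes were to be named in each comparison, and those that did not pass the test are in places given by the range of their values. From each other list the text names at most the 4 called genes with the largest change. Patterns were compared by Pearson's r of log2 CPM (prior count 2) over genes with a mean of at least 50 counts, and the 3 genes with the highest r were taken, of which 1 for Nfe2l2 is not reported here.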

Additional observations from a re-analysis of the deposited data

Results flagged for a closer look

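For 4 of the 12 Nrf2 target genes the effect of SFN differed between isosmotic cells and cells after 6 h of stress, a test that called 148 genes (0.759%) of the 19509 tested. The interaction of SFN with 6 h of stress was -1.66 on the log2 scale for Hmox1 (adjusted p = 0.036 by edgeR's quasi-likelihood test), -1.12 for Gclc (adjusted p = 0.000576), -0.63 for Gclm (adjusted p = 0.0387) and -0.78 for Srxn1 (adjusted p = 0.00527). Gclc, the catalytic subunit of glutathione synthesis, went from 76.1 ± 3.18 CPM with DMSO to 180 ± 15.5 CPM with SFN in isosmotic cells, and from 147 ± 6.35 to 160 ± 7.74 CPM at 6 h (mean ± SD, n = 2). Hmox1 was 77.8 ± 9.08 and 318 ± 13.5 CPM in isosmotic cells and 104 ± 3.16 and 135 ± 2.84 CPM at 6 h. The SFN libraries thus lay above the DMSO libraries at both times, and by less at 6 h. Stress and time after pretreatment cannot be told apart in this difference. Among the 10 regulators, 0 passed this test by edgeR.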

How the results depend on the processing

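Of the member values under an alternative, 1628 kept their direction and side of the threshold, 41 lost a call, 60 gained one and 1 reversed: Maff under 1 h of stress in Nrf2-/- cells, 0.05, was -0.72 without Nrf2-/- 1 h replicate 1 and 0.55 without replicate 2. In this count values without a call were given no direction, and 30 of them changed sign under some alternative, 6 of them other than by leaving out a library (largest size 0.09). Nfe2l1 at 6 h with DMSO, described above as slightly below its controls, was among those 6. The numbers of members called were within 1.5 times in 139 cases and moved in 34. For SFN in isosmotic cells (1 gene) they were 0 with RLE and with the replicate block, 2 with no filter, with at least 10 counts in every library and with only the libraries compared, 3 with the 12 WT libraries, without both Nrf2-/- 1 h libraries and with DESeq2, and 0 to 0 on leaving out a library. For 1 h of stress with SFN (1 gene) they were 2 with only the libraries compared, with the 12 WT libraries and without the Nrf2-/- 1 h pair, and 0 to 1 on leaving out a library. SFN at 1 h (0 genes) gave 1 with only the libraries compared. Nrf2 loss at 1 h (6 genes) gave 1 with only the libraries compared and 2 to 7 on leaving out a library. Stress for 1 h in Nrf2-/- cells (0 genes) gave 1 with DESeq2 and 0 to 5 on leaving out a library. The interaction of SFN with 1 h (0 genes) gave 1 with no filter and with DESeq2, and with 6 h (0 genes) 1 with no filter, and both gave 2 with only the libraries compared, with the 12 WT libraries and without the Nrf2-/- 1 h pair. The interaction of genotype with 1 h gave 0 to 2 on leaving out a library. The cause of these shifts was not tested. At least 10 counts in every library moved the median of all genes at 6 h by 0.12 with DMSO and 0.13 with SFN, and each 6 h call of Nfe2l2, Nfe2l3, Keap1 and the small Mafs kept its direction there.

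Deviations of same-numbered libraries correlated between -0.0794 and 0.123, and over 0.1 in 1 of 28 pairs of conditions. Replicate numbers, taken from the sample titles, thus showed little sign of pairing. Low correlations cannot show that same-numbered libraries were handled apart. With the number as a replicate block, Mafk lost its call for SFN in isosmotic cells (-0.45, adjusted p = 0.0724 by edgeR), and Cul3 lost its call for Nrf2 loss in isosmotic cells (0.40, adjusted p = 0.0522). Leaving out a library left its condition with 1, assumed to vary like the others. Nfe2l3 and Bach2 had the fewest counts, and their values are the least precise.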
